A study of Mus musculus with 6 samples.

Results

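Semaphorins, plexins and neuropilins are the ligands and receptors of one guidance system, and 31 of their genes, of 32285 measured, were followed across the cell types of the mouse septal area. The genes were found by their symbols in the deposited gene tables, and all 31 were present. They are 7 secreted semaphorins of class 3 (Sema3a to Sema3g), 13 membrane semaphorins (Sema4a to Sema7a), 9 plexins and 2 neuropilins. Over the nuclei assigned to a cell type, a gene was counted between 68 times (Sema3g) and 359009 times (Sema6d).

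Semaphorins are cues that steer axons, dendrites, migrating cells and vessels, most often by repulsion. Plexins are their receptors and act on small GTPases and the cytoskeleton. Most secreted semaphorins do not bind a plexin alone and need a neuropilin, Nrp1 or Nrp2, in the receptor complex, and Sema3e, which binds Plxnd1 directly, is the known exception. In the adult brain the same genes are known for roles in synapse number, perineuronal nets, myelinating cells, microglia and endothelium.

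Wild type septal tissue gave 6 libraries, with no treatment or second genotype, so each comparison is between cell types of the same samples. The title speaks of nuclei and the protocol of cells. The barcodes are called nuclei here, and mitochondrial genes took 0.047 to 0.0706% of UMIs (unique molecular identifiers, 1 per captured RNA). The labels do not give age, sex or whether the libraries came from separate animals. A p-value here rests on variation between these 6 samples that the test pools over genes, and that variation may be technical. The smallest p-values, in the vascular and microglia comparisons, could not come from 1 gene's spread over 6 samples, so they do not measure that spread. A library held 70183544 to 95175260 UMIs. Of 54623 barcodes with at least 500 detected genes, 45048 fell in 1 marker-gated type, and each library shared at most 0.433% of its barcodes with another.

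Markers of the labelled area were present: 6839 GABAergic nuclei carried those of the lateral septum and are called lateral septum-like, beside 1470 striatal-like, 9687 other GABAergic, 818 glutamatergic and 228 cholinergic nuclei. Glia comprised 8397 astrocytes, 6378 oligodendrocytes, 2315 ependymal nuclei, 2268 oligodendrocyte precursors and 851 microglia. The vascular class was small, with 639 endothelial, 382 mural (pericyte and smooth muscle) and 54 fibroblast nuclei in the samples that held at least 10 of a type. A type of 150 committed oligodendrocyte precursors lay outside the glia sum. All 30 check markers that took no part in the gates were highest in their own type. They covered neurons as a whole and the glial and vascular types, but no single neuron type and not the committed precursors. Neuronal check markers in other types, summed, reached 6.26 to 18.5% of their level in neurons, except 33.8% in ependymal nuclei and 43.7% in oligodendrocyte precursors, so low levels of neuron-rich genes in those types may include free RNA, whose part was not tested.

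Levels below are CPM, the UMIs of a gene per 1000000 UMIs of all genes in the summed nuclei of a type in 1 sample. They are compared between types within a gene, never between genes, because gene length affects counts in nuclei. A level is a share of a type's RNA, so fewer molecules of a gene and more of all others cannot be told apart. The heat map of levels by type shows that the 31 genes did not share a pattern. The highest mean was in endothelial nuclei for 6 genes, microglia for 5 and committed precursors for 4. Of these, 3, 1 and 3 genes lay above every sample of every other type. Astrocytes, oligodendrocyte precursors and fibroblasts each held the highest mean of 3 genes, and glutamatergic neurons and ependymal nuclei of 2 each. Among these, only 2 genes in astrocytes and 1 in glutamatergic neurons lay above all samples of other types. How many of all genes are highest in each type was not counted, so these counts may not be particular to the 31 genes.

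**Figure D1:**
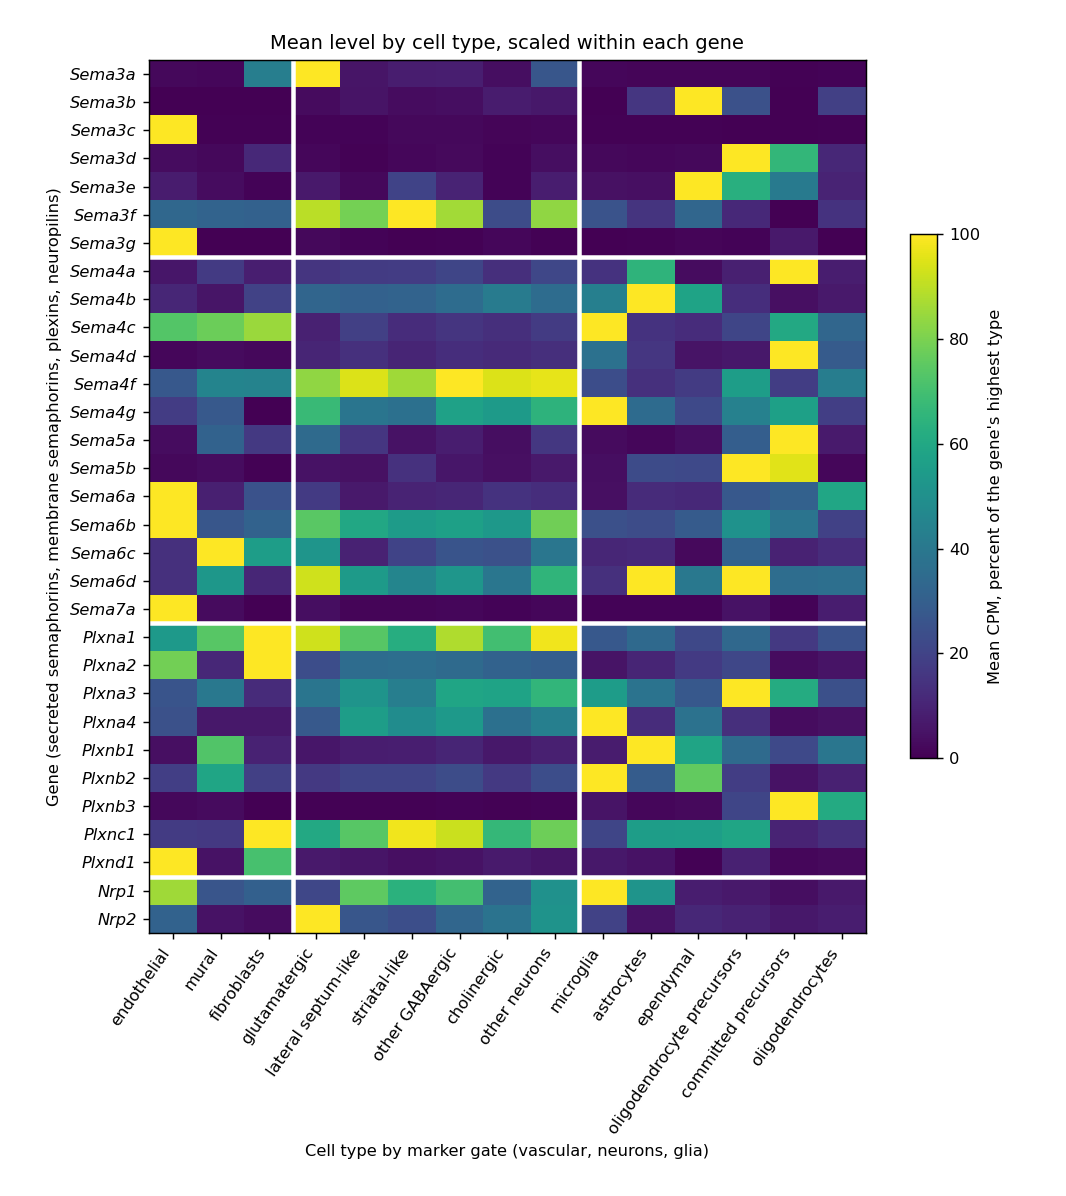
Mean CPM of each gene (rows, grouped as secreted semaphorins, membrane semaphorins, plexins and neuropilins) in 15 marker-gated types (columns, grouped as vascular, neurons and glia), as a percent of the gene's highest type. Means are over 6 samples, or 4 for fibroblasts. Yellow cells mark the highest type, which is endothelial for 6 genes and microglia for 5. Of these, 3 and 1 lay above every sample of every other type.

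Among the secreted ligands, Sema3c, Sema3a and Sema3d were highest in different types. Sema3c, which binds neuropilins and Plxnd1, averaged 1274 ± 159 CPM in endothelial nuclei (SD, n = 6), above the highest sample of any other type, while the next type, other GABAergic neurons, had 29.3 ± 2.55 CPM. Sema3a, a repellent for axons that also sits in perineuronal nets, averaged 655 ± 201 CPM in glutamatergic neurons, whose range of 296 to 827 CPM overlapped that of the next type, fibroblasts. Those fibroblasts gave 50 UMIs in all, and neurons with no transmitter call followed at 174 ± 53.7 CPM, with other GABAergic neurons at 55.4 ± 6.68 CPM. Sema3d was highest in the oligodendrocyte lineage, with 423 ± 31.2 CPM in precursors and 280.3 ± 71.0 CPM in committed precursors, against 47.7 ± 6.69 CPM in oligodendrocytes.

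The other secreted ligands were spread differently. Sema3e, the direct Plxnd1 ligand, was highest in ependymal nuclei at 193 ± 28.4 CPM, with oligodendrocyte precursors at 122 ± 8.41 CPM and striatal-like neurons at 39.1 ± 7.99 CPM. Sema3f, the ligand of Nrp2 and Plxna3 in dendritic spine pruning, lay at 7.24 CPM in striatal-like neurons and between 5.74 and 6.48 CPM in lateral septum-like, other, other GABAergic and glutamatergic neurons, with overlapping ranges. Sema3g gave 21 UMIs in endothelial nuclei, a mean of 14.1 ± 14.3 CPM, and 0 UMIs in mural, fibroblast, microglial and striatal-like nuclei. Sema3b was at the detection limit, with 100 UMIs in all gated nuclei and a highest mean of 2.60 ± 1.17 CPM in ependymal nuclei. It had 0 UMIs in endothelial, mural, fibroblast, microglial and committed precursor nuclei.

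The vascular-rich ligands Sema3c, Sema3g and Sema7a, the receptor Plxnd1, and the oligodendrocyte receptor Plxnb3 are shown by the 250 bases before their annotated start. Each had its highest mean in endothelial nuclei or, for Plxnb3, in committed precursors. The endothelial range of Sema3g, from 21 UMIs, overlapped that of committed precursors. Other genes with their highest mean in these types are not shown. The windows are from RefSeq on build GRCm38.p6, 5′ to 3′ on the gene's strand, and 26 of the 31 genes had such an entry. Capitals in the first 4 mark AGGAAG on either strand, the core letters bound by ETS factors, and capitals in Plxnb3 mark ACAAAG or ACAATG on either strand, core letters bound by SOX factors.
Sema3c (chr5:17574566-17574815, plus strand): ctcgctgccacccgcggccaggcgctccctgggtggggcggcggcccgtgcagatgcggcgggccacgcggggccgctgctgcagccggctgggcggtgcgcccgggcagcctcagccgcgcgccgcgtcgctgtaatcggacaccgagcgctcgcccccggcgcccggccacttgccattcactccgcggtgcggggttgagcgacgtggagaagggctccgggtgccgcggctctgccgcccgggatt
Sema3g (chr14:31217623-31217872, plus strand): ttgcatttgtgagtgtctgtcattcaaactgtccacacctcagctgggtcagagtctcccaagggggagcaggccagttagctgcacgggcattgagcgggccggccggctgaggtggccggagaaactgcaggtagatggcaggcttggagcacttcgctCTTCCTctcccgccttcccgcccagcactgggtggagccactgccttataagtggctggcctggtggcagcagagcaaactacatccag
Sema7a (chr9:57939862-57940111, plus strand): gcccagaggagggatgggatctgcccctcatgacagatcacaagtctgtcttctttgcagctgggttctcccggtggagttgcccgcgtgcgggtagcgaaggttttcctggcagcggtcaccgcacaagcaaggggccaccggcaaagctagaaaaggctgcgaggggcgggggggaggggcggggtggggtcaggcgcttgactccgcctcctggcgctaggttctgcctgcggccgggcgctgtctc
Plxnd1 (chr6:115995006-115995255, minus strand): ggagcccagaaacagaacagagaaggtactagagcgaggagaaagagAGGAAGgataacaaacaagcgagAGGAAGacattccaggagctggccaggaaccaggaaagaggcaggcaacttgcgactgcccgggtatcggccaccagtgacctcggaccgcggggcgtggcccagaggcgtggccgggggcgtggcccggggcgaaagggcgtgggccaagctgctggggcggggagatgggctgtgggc
Plxnb3 (chrX:73756853-73757102, plus strand): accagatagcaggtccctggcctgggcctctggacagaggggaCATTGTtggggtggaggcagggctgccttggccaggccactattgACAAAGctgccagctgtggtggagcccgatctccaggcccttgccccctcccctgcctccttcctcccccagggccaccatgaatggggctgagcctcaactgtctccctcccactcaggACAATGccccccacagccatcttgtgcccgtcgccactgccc
The ETS letters were found 1 time before Sema3g, 2 times before Plxnd1 and 0 times before Sema3c and Sema7a, and 29.5% of 32851 windows of the same length in the table hold them. The SOX letters were found 3 times before Plxnb3 and are held by 25.2% of those windows. Over the 37 windows of member genes, some genes having several starts, 15 held the ETS letters and 8 the SOX letters. These are letter matches, not measured binding.

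Membrane semaphorins of class 4, which signal through B plexins and Plxnd1, had their highest mean in a glial type in 5 of 6 genes. Sema4d, the main ligand of Plxnb1, reached 543 ± 159 CPM in committed precursors, above every sample of every other type, with 204 ± 29.3 CPM in microglia and 156 ± 13.6 CPM in oligodendrocytes. Sema4a averaged 102 ± 24.5 CPM in committed precursors and 66.4 ± 6.36 CPM in astrocytes, with ranges that overlapped, while no other type averaged more than 21.9 CPM. Sema4b was highest in astrocytes at 54.3 ± 3.11 CPM, above all samples of the ependymal nuclei that came next at 31.5 ± 5.81 CPM. Sema4c and Sema4g had their highest means in microglia, at 17.6 ± 6.45 CPM and 36.1 ± 9.03 CPM, but the range of Sema4c, from 43 UMIs, overlapped those of fibroblasts, mural and endothelial nuclei, and the range of Sema4g overlapped that of glutamatergic neurons. Sema4f, the exception, had overlapping ranges among neuron types, with means from 13.4 CPM in glutamatergic to 16.0 CPM in other GABAergic neurons.

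The remaining membrane semaphorins reached their highest levels in different cells. Sema5a, which carries thrombospondin repeats and binds A plexins and Plxnb3, averaged 1713 ± 299.5 CPM in committed precursors, against 595 ± 190.2 CPM in glutamatergic neurons, 538 ± 69.7 CPM in mural nuclei and 509 ± 30.2 CPM in oligodendrocyte precursors. Its relative Sema5b stood at 307 ± 34.5 CPM in precursors and 293 ± 88.1 CPM in committed precursors, and no other type exceeded 70.2 CPM. Sema6a, a ligand of Plxna2 and Plxna4, averaged 1056 ± 79.5 CPM in endothelial nuclei and 626 ± 47.5 CPM in oligodendrocytes, and no oligodendrocyte sample came as high as the lowest endothelial one. Sema6d was widespread, with 1457 ± 35.2 CPM in astrocytes, 1457 ± 45.4 CPM in precursors and 1353 ± 129 CPM in glutamatergic neurons, which overlapped, and its lowest mean was 158 CPM in fibroblasts. Sema7a, a lipid-anchored ligand of Plxnc1 and integrins, stood at 162 ± 42.5 CPM in endothelial nuclei, against 13.1 ± 1.68 CPM in oligodendrocytes, the next type. Sema6b and Sema6c were low, with highest means of 20.1 ± 7.97 CPM in endothelial and 24.0 ± 12.4 CPM in mural nuclei.

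The receptors, too, had their highest levels in different types. Plxna4, a partner of both neuropilins and a receptor of Sema6a, averaged 745 ± 97.7 CPM in microglia, above all samples of lateral septum-like neurons, the next type at 414 ± 20.7 CPM. Plxna2 was highest in fibroblasts (110 UMIs) and endothelial nuclei, the endothelial mean being 339 ± 22.0 CPM, and its neuron types lay between 101 and 156 CPM. Plxnb1, the Sema4d receptor, averaged 98.5 ± 5.56 CPM in astrocytes and 71.9 ± 14.6 CPM in mural nuclei, against at most 10.3 CPM in any neuron type. Plxnb2 was highest in microglia (57.3 ± 13.3 CPM) and ependymal nuclei (43.5 ± 6.72 CPM), with overlapping ranges. Plxnb3, a receptor of Sema5a, followed the oligodendrocyte lineage, with 44.1 ± 4.34 CPM in precursors, 212 ± 36.7 CPM in committed precursors and 129.8 ± 4.60 CPM in oligodendrocytes, 3 ranges that did not overlap. Plxnd1 averaged 41.8 ± 12.7 CPM in endothelial nuclei, while neurons and glia stayed at or below 3.87 CPM in every type.

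Plxnc1, the Sema7a receptor, lay at 110.2 ± 6.57 CPM in striatal-like and 104 ± 2.68 CPM in other GABAergic neurons, and its fibroblast mean of 113 CPM rested on 26 UMIs. Plxna1 ranged from 14.3 to 22.4 CPM among neuron types, and its slightly higher fibroblast mean rested on 4 UMIs. Plxna3 was highest in oligodendrocyte precursors at 18.1 ± 3.04 CPM, a range that overlapped those of committed precursors and microglia but of no other type. Nrp1, which also binds VEGF, averaged 363 ± 42.1 CPM in microglia, 311 ± 53.0 CPM in endothelial nuclei and 272 ± 14.4 CPM in lateral septum-like neurons, each overlapping the next. Nrp2 averaged 619.8 ± 129 CPM in glutamatergic neurons, above every sample of every other type, and the other neuron types lay between 149.8 and 318 CPM.

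In the first comparison, neurons differed from glia in all of the 30 genes that had enough counts to be tested. Both neuropilins and all 4 A plexins, the receptors of the secreted ligands, were higher in neurons, and Plxnb1, Plxnb3, Sema3d and Sema5b were lower. Higher in neurons were 16 genes, comprising 3 secreted and 5 membrane semaphorins, 6 plexins and both neuropilins. Lower were 14, comprising 3 secreted and 8 membrane semaphorins and 3 plexins. Of all 19253 genes tested, 84.7% passed the same threshold, an adjusted p of 0.05 in edgeR's quasi-likelihood test with Benjamini-Hochberg adjustment, 43% higher and 41.7% lower, so a pass alone says little about these genes. Their median log2 difference was 0.43, against 0.02 over all genes tested. Log2 differences use TMM scaling (trimmed mean of M-values), so they can differ from the ratio of the CPM printed beside them.

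The largest differences are given with the lowest, median and highest of the 6 samples. Sema3a had 58.3, 78.4 and 97.7 CPM in neurons, against 7.69, 8.49 and 9.09 CPM in glia, a log2 difference of 3.42 ± 0.07 (SE; edgeR adjusted p = 3.16e-14). Nrp2 had 192, 210.2 and 234 CPM in neurons, against 41.9, 45.9 and 52.2 CPM in glia, and differed by 2.38 ± 0.04 (SE; edgeR adjusted p = 3.14e-15) on the log2 scale. Plxna4 had 374, 383 and 408 CPM in neurons, against 106, 113 and 124 CPM in glia, a log2 difference of 1.95 ± 0.03 (SE; edgeR adjusted p = 6.52e-15). In all 3 genes the lowest neuron sample lay above the highest glia sample. Sema3f had 5.36, 6.21 and 6.53 CPM in neurons, against 0.988, 1.02 and 2.0 CPM in glia, with a log2 difference of 2.53 ± 0.13 (SE; edgeR adjusted p = 5.09e-10). Sema3c had 18.7, 21.5 and 22.9 CPM in neurons, against 4.79, 6.16 and 7.89 CPM in glia, with a log2 difference of 1.97 ± 0.07 (SE; edgeR adjusted p = 3.98e-12).

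Lower in neurons by the largest margin was Plxnb3, with 0.925, 1.67 and 2.39 CPM in neurons, against 42.9, 48.8 and 51.8 CPM in glia, a log2 difference of -4.67 ± 0.13 (SE; edgeR adjusted p = 3.34e-13). Sema3d had 6.12, 7.87 and 10.8 CPM in neurons, against 86.9, 94.2 and 102 CPM in glia, differing by -3.36 ± 0.09 (SE; edgeR adjusted p = 4.66e-13) on the log2 scale. Plxnb1 had 7.38, 8.84 and 10.7 CPM in neurons, against 60.9, 63.5 and 66.2 CPM in glia, a log2 difference of -2.64 ± 0.06 (SE; edgeR adjusted p = 4.97e-14). In these genes every neuron sample was below every glia sample. Sema5b had 16.5, 17.3 and 23.0 CPM in neurons, against 78.7, 91.5 and 108 CPM in glia, and differed by -2.13 ± 0.05 (SE; edgeR adjusted p = 1.41e-13) on the log2 scale. Sema3b, with 40 and 60 UMIs in neurons and glia, differed by -2.21 ± 0.29 (SE; edgeR adjusted p = 8.45e-06). The A plexins Plxna1, Plxna2 and Plxna3 differed by 1.63, 1.78 and 0.50 on the log2 scale, and Nrp1 by 1.47.

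The smallest called differences were those of Plxnb2 (-0.16), Sema4d (-0.22) and Sema6d (-0.22). Plxnd1, called at 0.37, lost its call without replicate 1 (edgeR adjusted p = 0.064) or replicate 3 (edgeR adjusted p = 0.052). Astrocytes and oligodendrocytes make up most of the glia sum. With each cell type given equal weight, in an average of log2 levels over types, Sema6d turned to 0.36 higher in neurons on the log2 scale, Sema4b to 0.31 and Sema4a to 0.68. In that setting 19 of 29 members were called higher and 9 lower, beside 6306 higher and 6744 lower of all 16420 genes tested. Without scaling beyond the total count, an alternative chosen after seeing the data, the median of all genes was -0.17 in place of 0.02, 40.9% in place of 50.7% of all calls were higher in neurons, and 15 members were called higher and 14 lower.

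**Figure D2:**
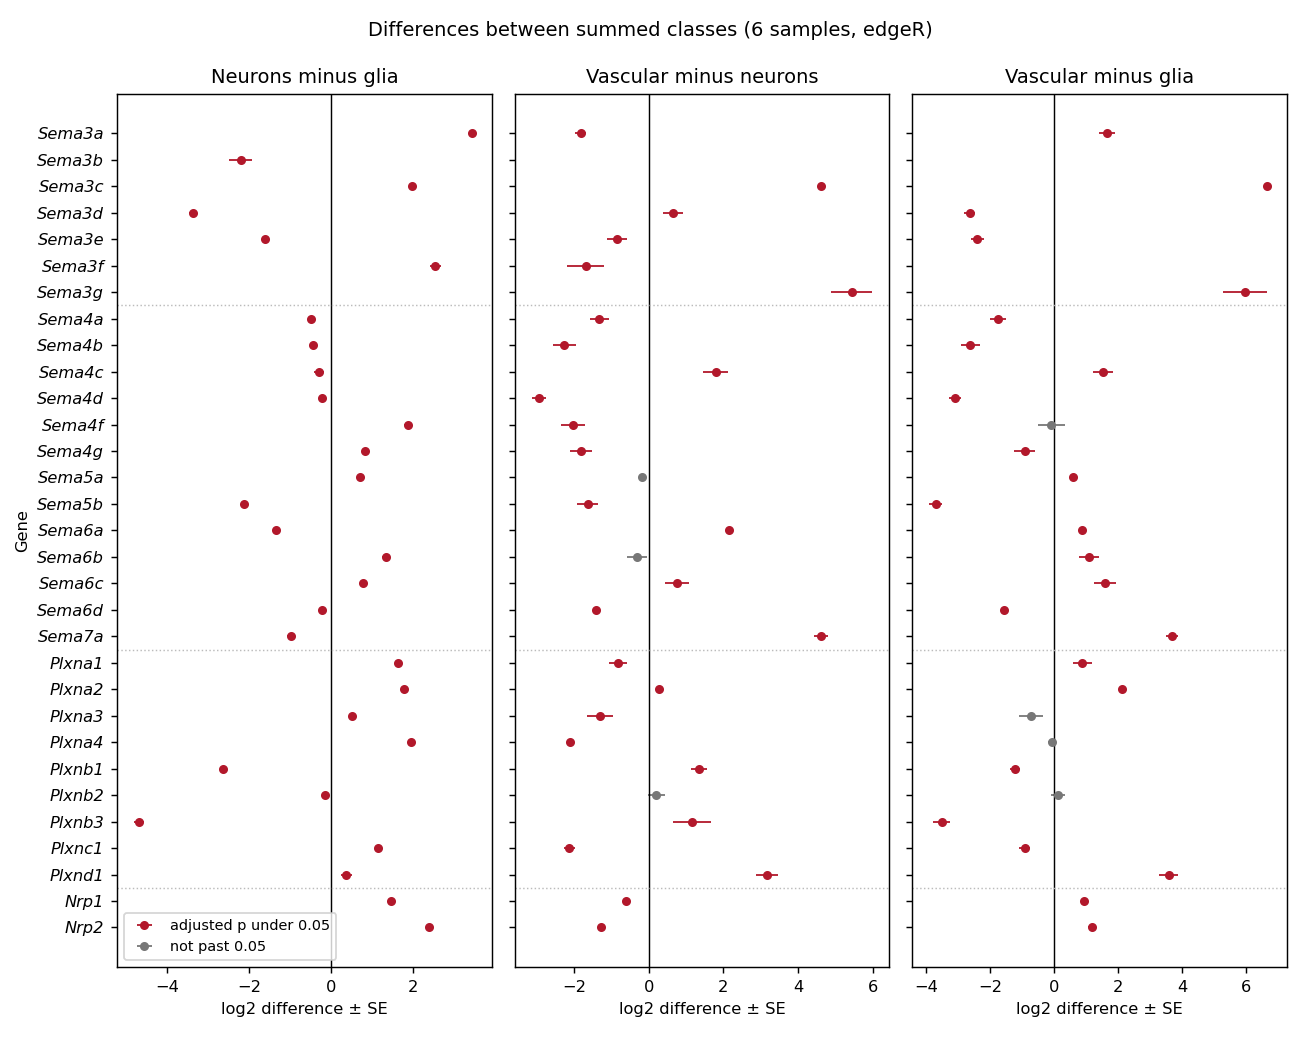
Log2 differences with their standard errors between summed neurons and glia, vascular nuclei and neurons, and vascular nuclei and glia, for each member with enough counts (6 samples, edgeR with TMM scaling). Red points passed an adjusted p of 0.05 and grey points did not. Sema3c lies 1.97 above 0 for neurons minus glia and 4.60 and 6.64 above 0 for the vascular contrasts.

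Other genes of the pathway, a list of 41 co-receptors, GTPases with their regulators and cytoplasmic effectors, were also split between neurons and glia. Of 40 tested, 15 were higher in neurons and 20 lower. Crmp1, a collapsin response mediator phosphorylated after Sema3a signalling, averaged 68.0 ± 2.17 CPM in neurons, against 9.14 ± 0.574 CPM in glia, a log2 difference of 3.09. Met, a co-receptor for Plxnb1, and Dpysl5, a further collapsin response mediator, were higher in neurons by 2.76 and 2.62. Lower in neurons were Erbb2 (-4.20), a B plexin co-receptor, Tyrobp (-3.68), the signalling adaptor of Trem2, and Mical1 (-3.38), an oxidoreductase that acts on actin downstream of A plexins.

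Vascular nuclei, set against neurons, were higher in 11 genes and lower in 16 of the 30 tested, where 59.7% of all 17635 genes were called in either direction, 23.9% higher and 35.8% lower. Higher were the ligands Sema3c, Sema3g, Sema6a and Sema7a and the receptor Plxnd1, and lower were both neuropilins, Plxna4, Plxnc1 and 7 membrane semaphorins. The Nrp1 call is for the summed vascular class, and the Nrp1 mean in endothelial nuclei alone was above that in neurons. Without scaling beyond the total count Nrp1 was not called (-0.18, edgeR adjusted p = 0.061). Sema3c had 526, 687 and 775 CPM in vascular nuclei, against 18.7, 21.5 and 22.9 CPM in neurons, a log2 difference of 4.60 ± 0.08 (SE; edgeR adjusted p too small for the software to represent). Sema7a had 62.8, 88.3 and 124 CPM in vascular nuclei, against 2.47, 2.63 and 2.86 CPM in neurons, differing by 4.61 ± 0.19 (SE; edgeR adjusted p = 1.63e-125). Plxnd1 had 16.3, 27.8 and 31.6 CPM in vascular nuclei, against 1.89, 2.0 and 2.56 CPM in neurons, with a log2 difference of 3.17 ± 0.28 (SE; edgeR adjusted p = 3.61e-28). No vascular sample of these genes overlapped a neuron sample.

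Sema6a had 556, 627 and 698 CPM in vascular nuclei, against 94.5, 104 and 117 CPM in neurons, a log2 difference of 2.14 ± 0.07 (SE; edgeR adjusted p = 3.51e-184). Sema3g had 1.99, 3.36 and 20.9 CPM in vascular nuclei, from 21 UMIs, against 0.0753, 0.106 and 0.199 CPM in neurons, a log2 difference of 5.44 ± 0.55 (SE; edgeR adjusted p = 5.93e-22). Its highest vascular sample stood well apart from the median. Sema3g passed the filter on low counts through the vascular sums alone, where it is high, so its call is no added support. Lower in vascular nuclei was Sema4d, with 5.93, 12.8 and 24.9 CPM in vascular nuclei, against 65.0, 70.8 and 75.1 CPM in neurons, a difference of -2.94 ± 0.19 (SE; edgeR adjusted p = 1e-51) on the log2 scale. Plxna4 had 95.5, 124 and 146 CPM in vascular nuclei, against 374, 383 and 408 CPM in neurons, a log2 difference of -2.09 ± 0.10 (SE; edgeR adjusted p = 9.51e-105). Sema4b, Plxnc1 and Sema4f differed by -2.25, -2.12 and -2.02 on the log2 scale, with no overlap of the samples. The median log2 difference was -0.71 over the members and -0.27 over all genes tested.

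Endothelial nuclei were 639 of the 1089 vascular nuclei. With equal weight per type, 4 members were called higher and 17 lower, beside 2458 higher and 5895 lower of all 15035 genes tested. Sema3c differed by 0.31 (edgeR adjusted p = 0.78), Sema3g by 0.43 with no standard error, and Sema7a by -0.40 (edgeR adjusted p = 0.92). This setting averages log2 levels over types, so types with almost no counts pull it down. Sema3c averaged 1274 CPM in endothelial, 5.54 CPM in mural (6 UMIs) and 6.35 CPM in fibroblast nuclei (1 UMI), so 0.31 does not describe its endothelial level. Without scaling beyond the total count the median of all genes was 0.16, 59.2% in place of 40% of all calls were higher in vascular nuclei, 13 members were called higher and 13 lower, and Sema5a, not called at -0.16, was called at 0.27.

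Vascular nuclei, set against glia, were higher in 14 genes and lower in 11 of 29 tested, where 51.5% of all 15659 genes were called in either direction, 21.6% higher and 29.9% lower. Sema3c again led, with 526, 687 and 775 CPM in vascular nuclei, against 4.79, 6.16 and 7.89 CPM in glia, a log2 difference of 6.64 ± 0.10 (SE; edgeR adjusted p = 1.16e-73). Plxna2, which is a Sema6a receptor, had 200.2, 218 and 322 CPM in vascular nuclei, against 42.2, 49.6 and 53.7 CPM in glia, a log2 difference of 2.12 ± 0.10 (SE; edgeR adjusted p = 8.99e-36). Sema3g, Sema7a and Plxnd1 differed by 5.95, 3.68 and 3.58 on the log2 scale, and Nrp1 and Nrp2 by 0.92 and 1.18. Each of these was higher in vascular nuclei in 6 of 6 samples, though Sema3g again passed the filter on low counts through the vascular sums alone.

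Lower than in glia were Sema3d, Sema3e, Sema4a, Sema4b, Sema4d, Sema4g, Sema5b, Sema6d, Plxnb1, Plxnb3 and Plxnc1. Sema5b had 2.76, 8.61 and 14.0 CPM in vascular nuclei, against 78.7, 91.5 and 108 CPM in glia, a log2 difference of -3.70 ± 0.20 (SE; edgeR adjusted p = 6.39e-30). Plxnb3 had 1.94, 5.09 and 6.98 CPM in vascular nuclei, against 42.9, 48.8 and 51.8 CPM in glia, differing by -3.51 ± 0.26 (SE; edgeR adjusted p = 8.01e-22). Sema4d, Sema3d and Sema4b differed by -3.10, -2.64 and -2.62 on the log2 scale, each lower in 6 of 6 samples. The members' median log2 difference was 0.12, against -0.12 over all genes, but it was 0.07 without replicate 2 and 0.36 without replicate 4, and turned to -0.15 with stricter gates and -0.52 with equal weight per type. With equal weight per type 8 members were called higher and 11 lower, beside 1530 higher and 4290 lower of all 13919 genes tested. In that average of log2 levels over types Sema3c differed by 1.97 (edgeR adjusted p = 0.063), Sema7a by -0.13 (edgeR adjusted p = 0.91) and Nrp2 by -0.45. Without scaling 52.1% in place of 41.9% of all calls were higher in vascular nuclei.

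Both vascular contrasts share the vascular sums, and the pathway list was read beside each. Against neurons, 17 of 39 tested list genes were higher in vascular nuclei and 15 lower, and against glia 14 of 38 were higher and 14 lower. Kdr, the VEGF receptor that pairs with neuropilins, averaged 83.7 ± 13.9 CPM in vascular nuclei, against 0.277 ± 0.126 CPM in neurons and 1.05 ± 0.189 CPM in glia, log2 differences of 7.81 and 6.12. Itga1, part of a Sema7a-binding integrin, differed by 7.48 from neurons and 5.45 from glia. Erbb2 was higher than in neurons by 5.99, and Rhod, a GTPase that binds A plexins, higher than in glia by 3.82. L1cam, a co-receptor of Nrp1, Crmp1 and Dpysl5 were lower than in neurons, at -3.09, -2.92 and -2.87 on the log2 scale. Tyrobp had 0 UMIs in vascular nuclei, against 177 in glia, and Nrcam and Mical2 were lower than in glia, at -2.58 and -2.37.

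Within the vascular class, endothelial nuclei were higher than mural nuclei in Sema3c, Sema6a, Sema7a, both neuropilins, Plxna2 and Plxna4, and lower in Sema5a, Sema6d and Plxnb1. The filter on low counts left 10 members, several of which passed it through the type where they are high, such as Sema3c with 1875 UMIs in endothelial and 6 in mural nuclei and Plxnb1 with 6 and 73, so that their calls say nothing of the other members. These 10 were called, 7 higher in endothelial nuclei and 3 lower, where 45.6% of the 3784 genes tested were called in either direction, 24.9% higher and 20.7% lower. Sema3c had 985, 1322 and 1428 CPM in endothelial nuclei, against 0, 5.66 and 15.2 CPM in mural nuclei, a log2 difference of 7.56 ± 0.23 (SE; edgeR adjusted p = 1.26e-31). Sema7a had 114, 157 and 228 CPM in endothelial nuclei, against 0, 3.03 and 10.6 CPM in mural nuclei, a log2 difference of 4.80 ± 0.38 (SE; edgeR adjusted p = 1.55e-15). Sema6a had 985, 1045 and 1183 CPM in endothelial nuclei, against 40.5, 97.0 and 128 CPM in mural nuclei, differing by 3.47 ± 0.15 (SE; edgeR adjusted p = 2.91e-25). The samples of these genes did not overlap. Nrp2, Plxna2, Plxna4 and Nrp1 were higher by 2.63, 2.79, 1.88 and 1.67 on the log2 scale. Neuronal check markers, summed, were at 18.5% of their neuron level in endothelial nuclei and 14.6% in mural nuclei, and their part in the neuropilins and Plxna4 was not tested.

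In the other direction, Sema5a had 46.5, 57.0 and 61.3 CPM in endothelial nuclei, against 481, 511 and 655 CPM in mural nuclei, a log2 difference of -3.29 ± 0.16 (SE; edgeR adjusted p = 2.25e-23). Plxnb1 had 0, 3.62 and 8.45 CPM in endothelial nuclei, against 53.9, 72.7 and 90.9 CPM in mural nuclei, a log2 difference of -4.00 ± 0.45 (SE; edgeR adjusted p = 7.31e-11). Sema6d was lower in endothelial nuclei, with a log2 difference of -1.96 ± 0.13 (SE; edgeR adjusted p = 1.26e-18). Plxnd1, with 61 UMIs in endothelial nuclei against 2 in mural nuclei, and Sema3g, with 21 against 0, had too few counts to be tested, and 0 mural UMIs allow up to 2.98 CPM (3 counts over the 6 samples, counting error only). The 10 tested members had a median log2 difference of 2.25, against 0.02 over all genes. With no filter on low counts, however, 15 of 30 tested members were called, 10 higher and 5 lower, beside 1467 higher and 1249 lower of 18754 genes. The median was then -0.05, against 0.04 over all genes.

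**Figure D3:**
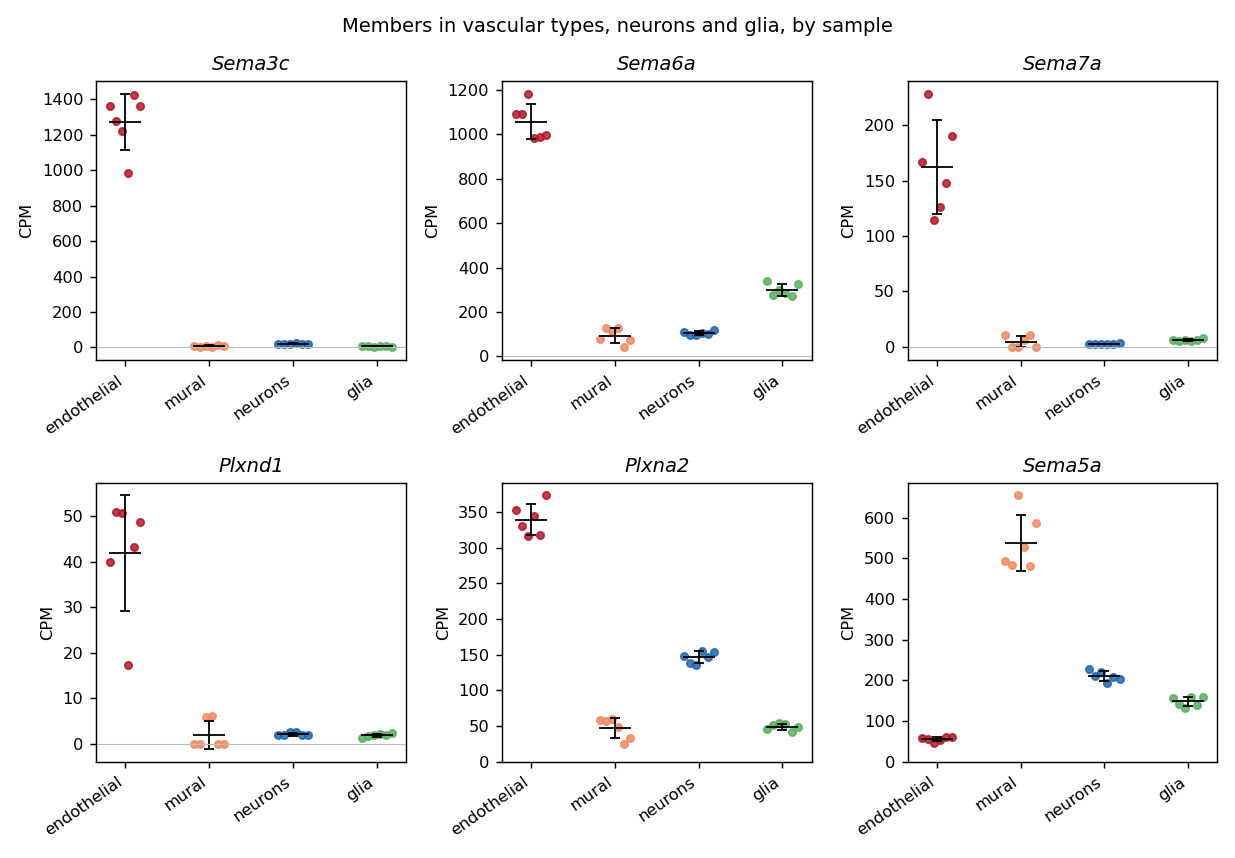
CPM in endothelial nuclei, mural nuclei, neurons and glia for 6 members. Points are the 6 samples, horizontal marks the mean and bars the SD. Sema3c, Sema6a, Sema7a and Plxna2 are highest in every endothelial sample, and Sema5a is highest in mural nuclei at 481 to 655 CPM.

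Of the pathway list, 4 of 16 tested genes were higher in endothelial nuclei and 6 lower, where 24.9% of all 3784 genes were higher and 20.7% lower. Kdr had 227 UMIs in endothelial nuclei and 0 in mural nuclei, so it passed the filter on low counts through the endothelial sums alone and its call is no added support. Rap1b, a GTPase that plexins inactivate, and Mical3 were higher by 0.79 and 0.74 on the log2 scale. Farp1, an exchange factor bound by A plexins, averaged 229.6 ± 39.8 CPM in endothelial nuclei, against 911 ± 68.4 CPM in mural nuclei, a log2 difference of -2.05. Dpysl2 and Itga1 were lower, at -1.26 and -1.22.

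Glutamatergic neurons, set against GABAergic neurons, were higher in Sema3a, Nrp2 and Sema5a and lower in Nrp1 and Plxna4. Of 29 tested members 9 were higher and 7 lower, where 28.8% of all 17353 genes were called in either direction, 13% higher and 15.8% lower. Higher were 7 of the 13 membrane semaphorins, Sema3a and Nrp2, and no plexin was higher, while 4 plexins, Nrp1, Sema3c and Sema4d were lower. Sema3a had 296, 711 and 827 CPM in glutamatergic neurons, against 42.1, 46.3 and 53.7 CPM in GABAergic neurons, a log2 difference of 3.77 ± 0.17 (SE; edgeR adjusted p = 4.38e-10). Nrp2 had 426, 608 and 804 CPM in glutamatergic neurons, against 179, 185 and 189.7 CPM in GABAergic neurons, a log2 difference of 1.75 ± 0.09 (SE; edgeR adjusted p = 2.78e-09). Sema5a had 306, 658 and 805 CPM in glutamatergic neurons, against 182, 190.4 and 196 CPM in GABAergic neurons, differing by 1.61 ± 0.15 (SE; edgeR adjusted p = 7.58e-07). Every glutamatergic sample was above every GABAergic one in these 3 genes, though 1 glutamatergic sample lay well below the others in Sema3a. Sema6c and Sema7a were higher by 1.48 and 1.17 on the log2 scale at low levels.

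The 2 neuropilins ran opposite ways. Nrp1 had 46.0, 75.6 and 112 CPM in glutamatergic neurons, against 247, 258 and 271 CPM in GABAergic neurons, a log2 difference of -1.79 ± 0.12 (SE; edgeR adjusted p = 3.34e-08). Plxna4 had 110.3, 202 and 305 CPM in glutamatergic neurons, against 385, 404 and 419.8 CPM in GABAergic neurons, a log2 difference of -0.99 ± 0.13 (SE; edgeR adjusted p = 4.64e-05). The samples of these genes did not overlap. Sema3c had 6.04, 10.3 and 17.4 CPM in glutamatergic neurons, against 18.7, 21.7 and 23.5 CPM in GABAergic neurons, with a log2 difference of -1.06 ± 0.17 (SE; edgeR adjusted p = 0.000196). Plxna2 and Plxnb1 differed by -0.59 and -0.54 with overlapping samples, and Plxnb1 lost its call when any of replicates 1, 3, 4, 5 and 6 was left out, with edgeR adjusted p of 0.069 to 0.14. The members' median log2 difference was -0.09, against -0.01 over all genes, with -0.14 to -0.07 when 1 replicate was left out and -0.01 without the top 10 percent of nuclei by UMIs. With every nucleus thinned to 1000 UMIs, 10 members were called in place of 16, and Sema6b, called at 0.40, stood at -0.25 and also lost its call when any of replicates 1, 2, 3 and 6 was left out.

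**Figure D4:**
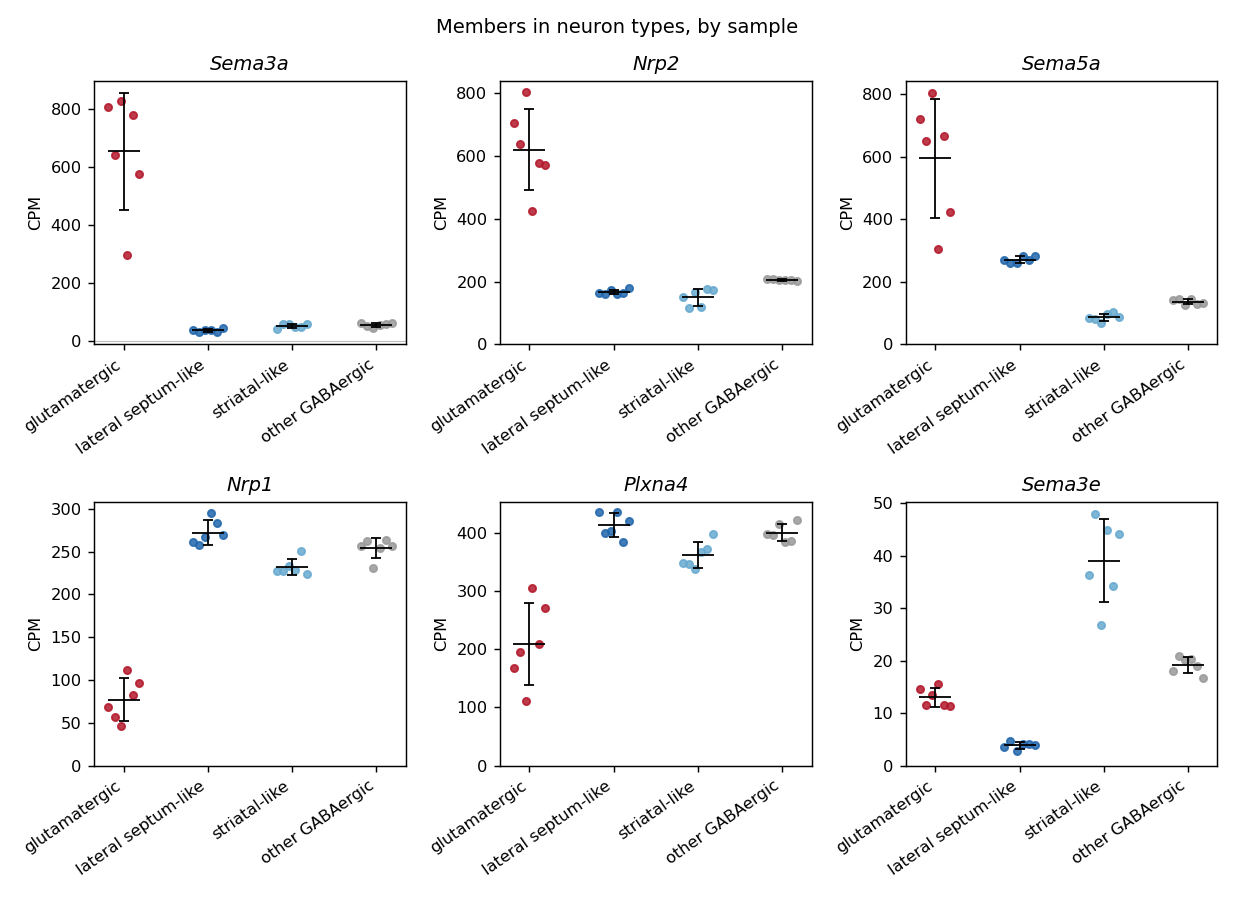
CPM of 6 members in glutamatergic, lateral septum-like, striatal-like and other GABAergic neurons. Points are the 6 samples, horizontal marks the mean and bars the SD. Sema3a and Nrp2 are highest in all glutamatergic samples, Nrp1 and Plxna4 lowest there, and Sema3e is highest in striatal-like neurons at 39.1 CPM.

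Of the pathway list, 10 of 34 tested genes were higher in glutamatergic neurons and 6 lower. Dpysl3, a collapsin response mediator, averaged 110.2 ± 18.5 CPM in glutamatergic neurons, against 36.2 ± 1.97 CPM in GABAergic neurons, a log2 difference of 1.64. Ptk7, a receptor that joins plexin complexes, and Chl1, an adhesion molecule and Nrp1 partner, were higher by 1.07 and 0.90. Met averaged 1.53 ± 1.34 CPM in glutamatergic neurons, against 22.5 ± 1.44 CPM in GABAergic neurons, a log2 difference of -3.76. Cd72, a Sema4d receptor of immune cells, was near its detection limit with 2 UMIs in glutamatergic neurons, and Sh3bp1, a GTPase-activating protein bound by Plxnd1, differed by -1.06.

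Between the 2 named GABAergic types, lateral septum-like neurons were higher in Sema5a and lower in 4 secreted semaphorins than striatal-like neurons. Of 29 tested members 8 were higher and 8 lower, where 35.6% of all 15426 genes were called in either direction, 17% higher and 18.6% lower. Sema5a had 259, 271 and 283 CPM in lateral septum-like neurons, against 68.7, 84.7 and 102 CPM in striatal-like neurons, a log2 difference of 1.68 ± 0.05 (SE; edgeR adjusted p = 8.39e-14). Sema3e had 2.73, 4.05 and 4.59 CPM in lateral septum-like neurons, against 26.8, 40.3 and 47.9 CPM in striatal-like neurons, a log2 difference of -3.31 ± 0.09 (SE; edgeR adjusted p = 1.12e-14). Sema5b had 11.0, 14.0 and 15.4 CPM in lateral septum-like neurons, against 37.1, 39.6 and 58.4 CPM in striatal-like neurons, differing by -1.65 ± 0.07 (SE; edgeR adjusted p = 7.01e-12). The samples of these genes did not overlap, so Sema5a and Sema5b, of the same class, ran opposite ways.

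Sema3c had 8.46, 9.97 and 12.4 CPM in lateral septum-like neurons, against 21.4, 27.8 and 42.3 CPM in striatal-like neurons, a log2 difference of -1.46 ± 0.13 (SE; edgeR adjusted p = 8.56e-08). Sema3d and Sema6c were lower, at -1.35 and -1.04 on the log2 scale, and Sema3a at -0.51. The other higher genes differed by less, with Sema4c at 0.60, Sema4d at 0.45, Sema6d and Plxna1 at 0.30 and 0.30, Nrp1 at 0.27, Plxna4 at 0.23 and Nrp2 at 0.21. Sema4c lost its call without replicate 1 (edgeR adjusted p = 0.067) or replicate 2 (edgeR adjusted p = 0.084), Plxna1 without replicate 4 (edgeR adjusted p = 0.061), and Nrp2 without replicate 2 (edgeR adjusted p = 0.053) or 4 (edgeR adjusted p = 0.065), and also without the replicate block (edgeR adjusted p = 0.054). The members' median log2 difference was 0.03, against -0.01 over all genes, with 0.02 to 0.08 when 1 replicate was left out (0.08 without replicate 1) and -0.04 with stricter gates. Stricter gates left 21 members tested and 7 called, with Sema6a, called at -0.43, at 0.32. Of all 10134 genes then tested, 1214 were higher and 1342 lower. Thinning to 1000 UMIs left 15 members tested and 6 called, beside 683 higher and 770 lower of 6964 genes. The stricter gates kept 108 to 184 lateral septum-like nuclei in a sample, in place of 903 to 1510.

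The pathway list gave 8 of 31 tested genes higher in lateral septum-like neurons and 8 lower. Met averaged 42.1 ± 2.66 CPM in lateral septum-like neurons, against 3.20 ± 2.08 CPM in striatal-like neurons, a log2 difference of 3.60. Sh3bp1 and Fyn, a kinase that acts downstream of A plexins, were higher by 0.44 and 0.43. Dpysl3, Ptk7 and the neuropilin ligand Vegfa were lower, at -0.87, -0.70 and -0.59 on the log2 scale.

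Along the oligodendrocyte lineage, Sema5b, Sema3d and Sema5a were lower in oligodendrocytes than in precursors, and Sema4d, Plxnb3 and Sema6a were higher. Of 28 tested members 6 were higher in oligodendrocytes and 16 lower, where 69.5% of all 12384 genes were called in either direction, 34.3% higher and 35.2% lower. Lower were 6 of the 9 plexins and 7 membrane semaphorins, and Plxnb3 was called higher. Plxnb1, not called at 0.18, was called higher in oligodendrocytes under 6 alternatives, such as no filter on low counts (0.24, edgeR adjusted p = 0.016) and no replicate block (0.17, edgeR adjusted p = 0.047), and its oligodendrocyte samples of 36.0, 38.3 and 42.9 CPM lay, by a narrow margin, above its precursor samples of 32.5, 33.9 and 36.0 CPM. Sema5b had 4.52, 4.97 and 9.74 CPM in oligodendrocytes, against 259, 308 and 346 CPM in precursors, a log2 difference of -5.72 ± 0.09 (SE; edgeR adjusted p = 4.36e-28). Sema3d had 40.4, 48.0 and 57.5 CPM in oligodendrocytes, against 388, 415 and 477 CPM in precursors, a log2 difference of -3.14 ± 0.07 (SE; edgeR adjusted p = 2.11e-25). Sema5a had 82.6, 118 and 179 CPM in oligodendrocytes, against 487, 501 and 569 CPM in precursors, differing by -2.06 ± 0.09 (SE; edgeR adjusted p = 2.74e-18). No oligodendrocyte sample overlapped a precursor sample in these genes. Sema3e and Plxnc1 were lower, at -2.72 and -2.11 on the log2 scale, and Plxna2, Plxna3 and Plxna4 at -2.03, -2.04 and -1.57.

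Sema4d had 137, 159.7 and 171 CPM in oligodendrocytes, against 28.2, 34.8 and 37.7 CPM in precursors, a log2 difference of 2.17 ± 0.07 (SE; edgeR adjusted p = 1.56e-21). Plxnb3 had 124, 129 and 136 CPM in oligodendrocytes, against 35.4, 45.5 and 47.1 CPM in precursors, a log2 difference of 1.55 ± 0.06 (SE; edgeR adjusted p = 1.43e-18). Sema6a had 577, 622 and 696 CPM in oligodendrocytes, against 274, 289 and 309 CPM in precursors, differing by 1.10 ± 0.04 (SE; edgeR adjusted p = 7.21e-19). These 3 were higher in 6 of 6 samples with no overlap, and Sema3c and Sema7a were higher by 1.03 and 0.72 with overlapping samples. The members' median log2 difference was -0.99, against 0.01 over all genes. Neuronal check markers were at 10.5% of their neuron level in oligodendrocytes and 43.7% in precursors, and their part in genes lower in oligodendrocytes was not tested. With every nucleus thinned to 1000 UMIs, 12 of the 14 members still tested were called, in place of 22 of 28. Of all 7402 genes then tested, 2168 were higher and 2212 lower.

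The committed precursors between these stages were not an average of them, and are described with no test. Summed check markers of oligodendrocytes and of precursors stood there at 52.5% and 36.8% of the level in their own types. The gate let committed precursors carry gate markers of either other stage or both, so doublets of precursors and oligodendrocytes were not removed from them. From precursors to committed precursors to oligodendrocytes, Sema5a averaged 509, 1713 and 125 CPM, Sema4d 34.4, 543 and 156 CPM, and Plxnb3 44.1, 212 and 129.8 CPM. In each of these 3 genes, all 6 committed precursor samples lay above all samples of both other stages. Sema4a took 9.09, 102 and 8.08 CPM over the same stages. Sema5b and Sema3d were still high in committed precursors, and Sema6a there ranged widely, from 166 to 701 CPM, with 18 to 33 nuclei in a sample. Plxna2 and Plxna4 were low in committed precursors at 14.7 and 24.6 CPM, against 92.3 and 102 CPM in precursors.

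**Figure D5:**
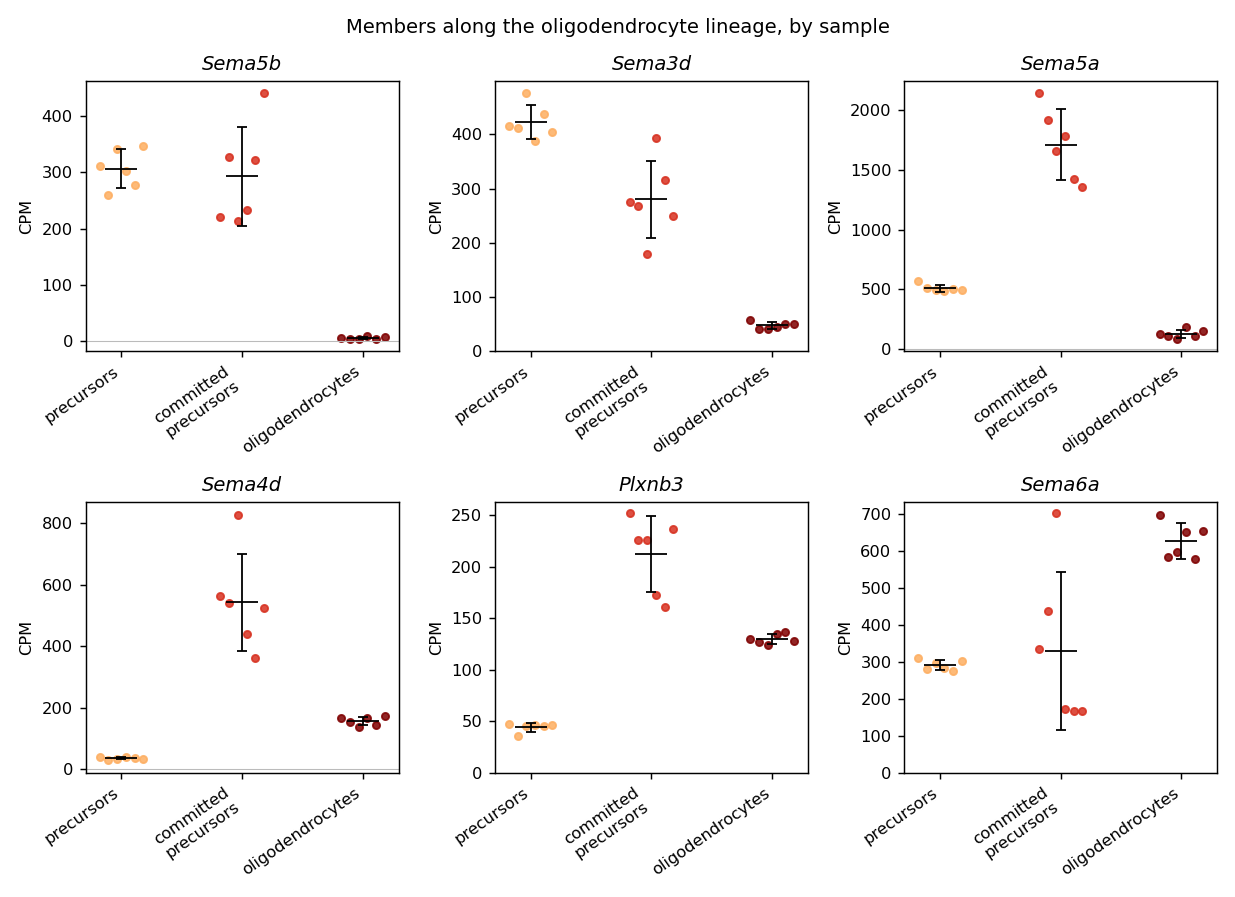
CPM of 6 members in oligodendrocyte precursors, committed precursors and oligodendrocytes. Points are the 6 samples, horizontal marks the mean and bars the SD. Sema5a, Sema4d and Plxnb3 are highest in all samples of the middle stage, while Sema5b and Sema3d are lowest in oligodendrocytes.

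Of the pathway list, 10 of 30 tested genes were higher in oligodendrocytes and 18 lower. Dpysl2, the founding collapsin response mediator, averaged 338 ± 9.87 CPM in oligodendrocytes, against 97.1 ± 9.12 CPM in precursors, a log2 difference of 1.80, and Cdk5, a kinase that phosphorylates it, was higher by 1.76. Mical2 was higher by 0.95. Dpysl3 averaged 6.50 ± 1.25 CPM in oligodendrocytes, against 177 ± 11.9 CPM in precursors, a log2 difference of -4.78. Ptk7 and Chl1 were lower, at -3.81 and -3.23.

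Microglia, set against the other glia, were higher in both neuropilins, 2 plexins and 3 membrane semaphorins, and lower in 9 semaphorins and 4 plexins. Of 28 tested members 7 were higher and 13 lower, where 60.1% of all 15446 genes were called in either direction, 25.9% higher and 34.2% lower. The 7 were Plxna4, Plxnb2, both neuropilins, Sema4c, Sema4d and Sema4g. Plxna4 had 644, 721 and 888 CPM in microglia, against 89.2, 96.5 and 108 CPM in other glia, a log2 difference of 2.75 ± 0.08 (SE; edgeR adjusted p = 1.08e-80). Nrp1 had 303, 364 and 416 CPM in microglia, against 86.2, 93.4 and 99.6 CPM in other glia, a log2 difference of 1.76 ± 0.08 (SE; edgeR adjusted p = 3.44e-49). Plxnb2, the Sema4c receptor, had 41.1, 60.0 and 72.5 CPM in microglia, against 13.1, 14.7 and 17.4 CPM in other glia, differing by 1.79 ± 0.17 (SE; edgeR adjusted p = 4.64e-19). All microglial samples lay above all samples of other glia in these genes. Sema4c and Sema4g were higher by 2.02 and 1.53 on the log2 scale, Nrp2 by 1.21 and Sema4d by 0.93. Plxna4, Nrp1 and Nrp2 were also higher in neurons than in glia, and neuronal check markers in microglia were at 14.8% of their neuron level. Plxna4, Nrp1 and Nrp2 averaged 745, 363 and 123 CPM in microglia, against 386, 244 and 213 CPM in neurons, and the part of free RNA in these 3 genes was not tested.

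Lower in microglia was Sema6a, with 14.5, 40.9 and 71.4 CPM in microglia, against 278, 300.1 and 349.9 CPM in other glia, a log2 difference of -3.09 ± 0.13 (SE; edgeR adjusted p = 3.24e-56). Plxnb1 had 2.57, 7.60 and 12.7 CPM in microglia, against 62.5, 65.0 and 68.1 CPM in other glia, a log2 difference of -3.19 ± 0.23 (SE; edgeR adjusted p = 2.26e-28). Sema3d had 4.75, 8.05 and 15.4 CPM in microglia, against 88.9, 96.9 and 106 CPM in other glia, differing by -3.68 ± 0.21 (SE; edgeR adjusted p = 2.08e-38). No samples overlapped in these genes, and Sema5b and Sema3e were lower, at -3.16 and -2.67 on the log2 scale. The members' median log2 difference was -0.62, against -0.13 over all genes, which stood at 0.08 without scaling beyond the total count.

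Of the pathway list, 8 of 34 tested genes were higher in microglia and 16 lower. The kinase Fes, which binds A plexins, Tyrobp and Trem2, a Plxna1 partner, were each almost absent from other glia, with 61.7 ± 14.5 CPM, 59.7 ± 8.24 CPM and 94.2 ± 26.2 CPM in microglia, against 0.359 ± 0.148 CPM, 0.344 ± 0.18 CPM and 0.668 ± 0.144 CPM in other glia. Trem2 and Tyrobp are themselves known as microglial genes. Mical2, Vegfa and Farp1 were lower in microglia, at -3.41, -2.91 and -2.87 on the log2 scale.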

How the data were processed

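The deposited matrices hold unnormalized UMI counts for every gene in every barcode. The submitters' processing notes name STAR and Cell Ranger 3.1.0 for making them, and the file headers name version 5.0.0. Genome build and intron counting: not given in the sources used here. Barcodes with under 500 genes (914) were left out. A nucleus joined a type when its share of marker UMIs per 10000 and at least 2 distinct markers passed a threshold set after seeing the marker distributions. Nuclei meeting several gates (2374), and those partly meeting a second, were left out as possible doublets, except in committed precursors and fibroblasts. Committed precursors could also meet the oligodendrocyte gate, the precursor gate or both, and fibroblasts the astrocyte gate with under 3 of its genes. No doublet caller was run. Counts were summed per sample and type and tested with edgeR 4.0.16 (quasi-likelihood, low-count filter, TMM scaling, the sample as a block, Benjamini-Hochberg adjustment over all genes tested) in R 4.3.3. The block rests on both sums of a pair coming from the same library. A gene could pass the low-count filter through only the class where it is high. That held for Sema3b in glia against neurons, and for Sema3g and Kdr in vascular nuclei, so these calls are no added support. The median UMIs of a nucleus, by sample, were 5952.5 to 19643.5 in neuron types and 1696 to 4899 in vascular types. On simulated counts for neurons minus glia (19071 genes), 99.0% of genes changed by a log2 of 1 were recovered, with 4 false calls. For endothelial minus mural (3734 genes), all 97 genes changed by a log2 of 1 and all 102 changed by 2 were recovered, with 14 false calls. These simulated counts had the same small spread for all genes, no sample effect, and changes only in genes with ample expected counts. Recovery there does not carry over to low-count members such as Sema3g and Sema3b, or to the real variation between samples. Members, lists and comparisons were chosen with earlier results of these data known. Values per sample are given for called members with the largest differences, at most 5 in each direction, and at most 3 pathway genes. Alternatives were DESeq2 1.42.0, other scaling, filters, gates, thinning, equal weights, no block and leaving out each replicate.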

Additional observations from a re-analysis of the deposited data

Results flagged for a closer look

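Of 144 sets of 6 sample values, 4 held a sample far from the others, and chance flags about 1 in 20 such sets. Sema3f in glia was 2.0 CPM in replicate 2, and the next highest sample was at 1.16 CPM. Sema4b in neurons was 16.3 CPM in replicate 5, and the next lowest was at 18.4 CPM. Plxnb3 in oligodendrocyte precursors was 35.4 CPM in replicate 2, and the next lowest was at 44.9 CPM. Sema5a in oligodendrocyte precursors was 569 CPM in replicate 1, and the next highest was at 507 CPM.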

How the results depend on the processing

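The 8 comparisons gave 213 differences of single members, and 56 of them changed their call or direction under at least 1 of 16 alternatives. Of all such values, 3066 kept the call and direction, 108 kept the direction but lost the call, 35 gained a call and 12 turned round. Equal weight per cell type turned round Sema4a (0.68), Sema4b (0.31) and Sema6d (0.36) for neurons minus glia, Sema7a (-0.40), Plxna2 (-0.036) and Plxnb3 (-1.11) for vascular minus neurons, and Sema7a (-0.13) and Nrp2 (-0.45) for vascular minus glia. That setting averages log2 levels over types, so a type with almost no counts weighs heavily in it. Sema5a turned to 0.27 for vascular minus neurons without scaling, Sema6c to -0.056 there and Sema6b to -0.25 for glutamatergic minus GABAergic neurons with thinning to 1000 UMIs, and Sema6a to 0.32 for lateral septum-like minus striatal-like neurons with stricter gates. The count of called members moved by over 1.5 times in 4 cases. Lateral septum-like minus striatal-like neurons had 7 of 21 tested with stricter gates and 6 of 15 with thinning, in place of 16 of 29. With thinning, glutamatergic minus GABAergic neurons had 10 of 24 in place of 16 of 29, and oligodendrocytes minus precursors 12 of 14 in place of 22 of 28. Thinning and stricter gates leave fewer UMIs or nuclei in a sum, so fewer genes are tested. Without the replicate block, the comparisons called 30, 26, 25, 16, 15, 24, 20 and 10 members, in place of 30, 27, 25, 16, 16, 22, 20 and 10 with it, in the order neurons minus glia, vascular minus neurons, vascular minus glia, glutamatergic minus GABAergic neurons, lateral septum-like minus striatal-like neurons, oligodendrocytes minus precursors, microglia minus other glia and endothelial minus mural. Leaving out each replicate kept these counts at 28 to 30, 24 to 27, 24 to 25, 14 to 16, 14 to 16, 21 to 24, 19 to 21 and 10. Beside those named above, leaving out 1 replicate ended the call of Sema4c for neurons minus glia (replicates 1, 3, 5 or 6), Plxna2 (6), Plxnb3 (1, 2, 3 or 6), Sema6c (3, 4 or 5) and Sema3d (2, 3 or 6) for vascular minus neurons, Plxna1 (2 or 4) and Sema4g (6) for vascular minus glia, Sema4b (1 or 3) for microglia and Sema4c (1) for oligodendrocytes, and Sema3d stood at 0.16 without replicate 6. Depth limits Sema3b and Sema3g, with 100 and 68 UMIs in all, and 21 of the 31 members between endothelial and mural nuclei.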
